A study of Homo sapiens with 16 samples.

Results

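Expression of 10 genes of Notch signalling and of pericyte identity was followed by bulk RNA-seq in Ccd18-Co, which is a line of human colonic fibroblasts. The genes were taken by symbol from a table of 40663 symbols, and all 10 were present: the ligand JAG1, the receptors NOTCH1, NOTCH2 and NOTCH3, the target genes HES1, HEY1 and HEYL, and the pericyte markers RGS5, AOC3 and PDGFRB. There were 16 libraries in 4 groups of 4. Unstimulated cells were given DMSO, according to the sample titles, although the column headers of these libraries read none. The other 3 groups had all received 3 pulses of a cytokine mix, each with 72 h of cytokines in serum-free medium and 96 h of recovery. The mix held IL-1B at 0.1 ng/ml beside IL-17A, OSM and TNF, which were used at 10 ng/ml. After 1 week of rest, these cells were given DMSO (called vehicle here), 250 nM belinostat, an inhibitor of histone deacetylases, or 10 µM GSK-J4, an inhibitor of H3K27 demethylases, for 5 days in serum-free medium. RNA was taken 2 weeks after the compound had been withdrawn, so all values describe cells without compound. The model is a fibroblast line grown by itself, with no endothelial partner cell, and the labels number the replicates without saying whether they were separate cultures. The p-values therefore measure the spread between these libraries, which may be technical.

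Notch receptors are activated by ligands of the Jagged and Delta families on a neighbouring cell. Binding releases the intracellular part of the receptor by proteolysis, and this fragment joins the DNA-binding protein RBPJ and a Mastermind coactivator to switch on target genes, among them the HES and HEY transcriptional repressors. In blood vessels, JAG1 on endothelium and NOTCH3 on mural cells form a well-known pair, and pericytes, the mural cells of capillaries, depend on PDGFRB for their recruitment.

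The libraries held 14.4 to 19.5 M estimated counts. Values are normalized counts, that is estimated counts divided by DESeq2 size factors, and a gene was called when its Benjamini-Hochberg adjusted p in DESeq2's Wald test over all genes was under 0.05. All 8 fibroblast markers tested, such as COL1A1 and DCN, averaged at least 10 normalized counts. Of 18 pericyte markers, the members among them included, 10 did so. HIGD1B and COX4I2 were at 0 in every library, KCNJ8 reached at most 2 rounded counts and FOXS1 and GJA4 at most 1, so the name pericyte applies to single genes here and not to the cells. Of 7 endothelial markers, CDH5 and ERG reached at most 1 rounded count and PECAM1 at most 8, but 2 averaged at least 10. These were VWF and TEK, at 31.78 and 8032 normalized counts in unstimulated cells. TEK averaged 9322 with belinostat, a log2 fold change of 0.22 relative to unstimulated cells (SE 0.06, adjusted p = 0.0063). None of 5 epithelial markers averaged 10. Of 6 leukocyte markers, PTPRC reached at most 5 rounded counts, but 2 averaged at least 10. These were CD14 and CD68, at 71.81 and 290.9 normalized counts in unstimulated cells. CD14 averaged 195.7 with belinostat, a log2 fold change of 1.45 relative to unstimulated cells (SE 0.35, adjusted p = 0.00109), with overlapping libraries. In bulk RNA, fewer cells that express a gene and less RNA per cell cannot be told apart.

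Promoter sequence is shown for 4 members because the target genes HES1 and HEYL are the ones through which Notch activity is usually read, while RGS5 and NOTCH3 were called in the comparisons given further on. Each line gives the 250 bases before the transcription start, 5′ to 3′ on the strand of the gene, from RefSeq on GRCh38.p14. Capitals mark TGGGAA, the core of the site that RBPJ binds, or its reverse complement TTCCCA.
HES1 (chr3:194135898-194136147, plus strand): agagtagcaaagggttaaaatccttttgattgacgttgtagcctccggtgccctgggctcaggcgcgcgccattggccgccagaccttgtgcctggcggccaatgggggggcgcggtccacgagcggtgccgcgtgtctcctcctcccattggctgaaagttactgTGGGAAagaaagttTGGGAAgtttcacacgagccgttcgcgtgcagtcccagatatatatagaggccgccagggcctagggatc
HEYL (chr1:39639644-39639893, minus strand): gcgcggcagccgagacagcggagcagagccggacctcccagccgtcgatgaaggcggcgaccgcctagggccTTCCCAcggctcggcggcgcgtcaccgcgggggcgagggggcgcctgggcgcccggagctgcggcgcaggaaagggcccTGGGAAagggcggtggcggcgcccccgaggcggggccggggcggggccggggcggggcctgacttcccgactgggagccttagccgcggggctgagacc
RGS5 (chr1:163202917-163203166, minus strand): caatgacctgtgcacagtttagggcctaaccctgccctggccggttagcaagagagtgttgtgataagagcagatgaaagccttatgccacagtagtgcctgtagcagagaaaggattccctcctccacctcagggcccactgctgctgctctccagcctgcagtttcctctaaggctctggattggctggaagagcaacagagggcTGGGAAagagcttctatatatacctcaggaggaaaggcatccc
NOTCH3 (chr19:15200996-15201245, minus strand): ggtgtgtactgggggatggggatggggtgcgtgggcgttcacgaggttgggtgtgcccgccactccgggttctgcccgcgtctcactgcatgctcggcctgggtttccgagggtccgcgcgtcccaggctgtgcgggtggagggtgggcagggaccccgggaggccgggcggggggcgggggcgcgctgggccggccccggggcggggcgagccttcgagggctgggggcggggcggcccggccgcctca
Both matches in HES1, starting 84 and 70 bases before the start, were on the gene's strand, and HEYL held a match on each strand, 178 and 99 bases before the start. The RGS5 window had 1 match, 43 bases before this start, and the window of its other RefSeq start had 0. NOTCH3 had 0 matches, as had NOTCH1, NOTCH2, JAG1 and PDGFRB. AOC3 and HEY1 had no entry. Of 35116 promoter windows of this length, 20.8% held TGGGAA on either strand. The longer form GTGGGAA, which contains TGGGAA, stood once in HES1 and once in HEYL and in 5.43% of all windows. CACGTG, which reads the same on both strands, was in none of the 9 windows of the 8 matched members and in 6.34% of all windows. A match of letters does not show that a factor is bound.

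The members covered a wide range of levels. Per kilobase of the canonical transcript, the mean normalized count in unstimulated cells was 2690 for PDGFRB, the receptor for PDGF-B, 556 for NOTCH2 and 168 for AOC3. It was 93.8 for JAG1, 78.5 for NOTCH3, 47.9 for HES1 and 37.9 for RGS5. HEY1 stood at 3.38, NOTCH1 at 0.302 and HEYL at 0.0614. In GSK-J4 cells RGS5, at 123 per kilobase, and NOTCH3, at 103, lay above JAG1, at 79.8. NOTCH2, at 563 in vehicle, 589 in belinostat and 530 in GSK-J4 cells, was the main receptor RNA in every group, and NOTCH1 was close to absent. The receptor NOTCH4, which is not a member, averaged 13.53 to 20.24 normalized counts per group.

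**Figure D1:**
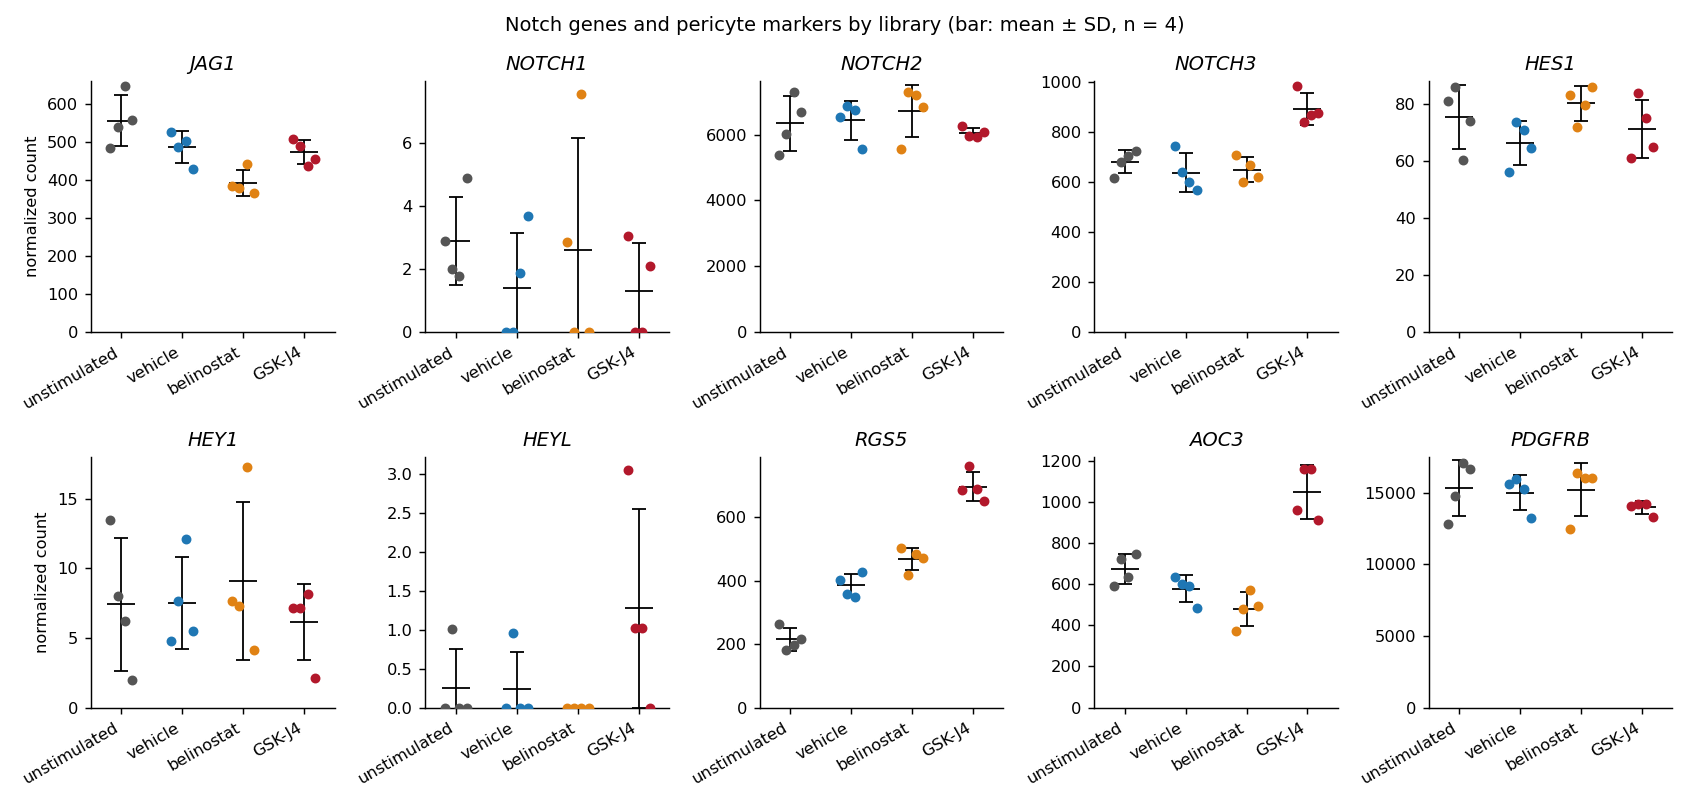
Normalized counts of the 10 members (vertical axis, from 0) in each of the 16 libraries, by group (horizontal axis), where points are libraries and bars are the mean ± SD (n = 4). RGS5, AOC3 and NOTCH3 stand highest in the 4 GSK-J4 libraries, while NOTCH2, HES1 and PDGFRB overlap between groups. NOTCH1, HEY1 and HEYL reach at most 7.552, 17.26 and 3.051 normalized counts.

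The members were called as follows in the 6 comparisons, several of which share the vehicle or the unstimulated libraries and so are not independent of each other. The belinostat and GSK-J4 groups differ from unstimulated cells by the cytokine pulses as well as by the compound. Vehicle against unstimulated called 1 of 8 members tested, RGS5, which was higher, where 1.74% of all genes tested were called (1.1% higher and 0.634% lower). Belinostat against vehicle called 1 of 7, JAG1, which was lower, against 6.26% of all genes (3.12% higher and 3.13% lower). GSK-J4 against vehicle called 3 of 7, NOTCH3, RGS5 and AOC3, all higher, against 1.92% of all genes (1.1% higher and 0.818% lower). Relative to unstimulated cells, belinostat called 3 of 7 members, with RGS5 higher and JAG1 and AOC3 lower, against 10.3% of all genes (5.51% higher and 4.77% lower). GSK-J4 called 3 of 8 relative to unstimulated cells, again NOTCH3, RGS5 and AOC3 and again higher, against 5.55% of all genes (3.18% higher and 2.37% lower). Belinostat against GSK-J4 called the same 3 of 8, all lower with belinostat, against 12.2% of all genes (6.18% higher and 6.01% lower). DESeq2's independent filter on low counts left out NOTCH1 and HEYL in every comparison, and HEY1 in those with 7 members tested. The median log2 fold change of the members tested lay between -0.07 and 0.10 over the 6 comparisons, and that of all genes tested between -0.008 and 0.003.

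**Figure D2:**
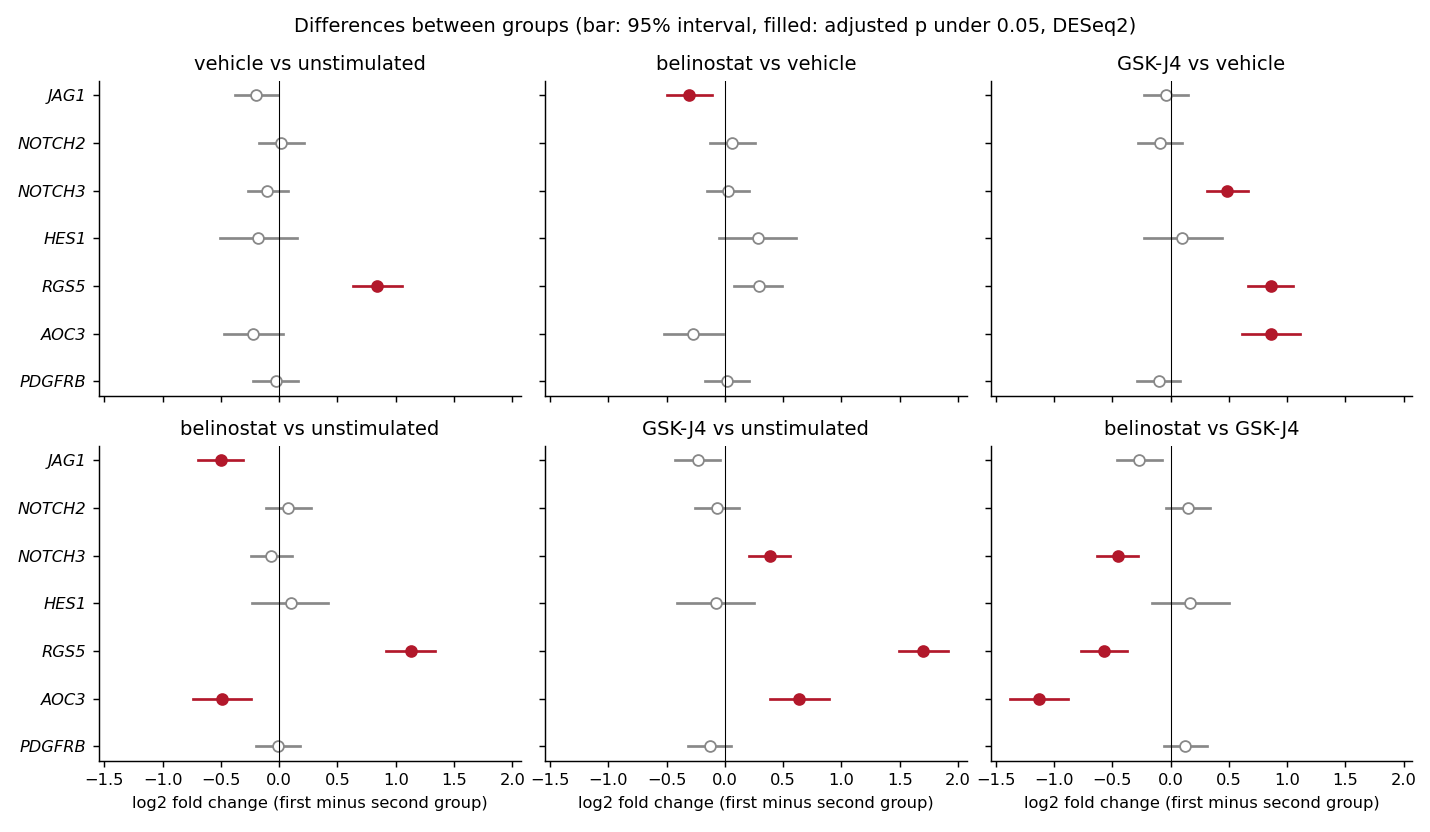
Log2 fold change (horizontal axis, first minus second group) with its 95% interval for the 7 members with at least 50 normalized counts on average, in the 6 comparisons, where filled red points have an adjusted p under 0.05 in DESeq2's Wald test. RGS5 is called in 5 comparisons, AOC3 in 4 and NOTCH3 in 3, and NOTCH2, HES1 and PDGFRB in none.

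JAG1 (chr20:10637684-10673999 on GRCh38), the Jagged ligand, was lowest after belinostat. Its normalized counts were 484.5, 540.6, 647.2 and 557.5 in unstimulated cells and 527.3, 488.7, 503 and 429.7 in vehicle cells. They were 385.7, 379.8, 442.3 and 365.5 with belinostat and 509.6, 491.5, 437.9 and 457 with GSK-J4. All 4 belinostat libraries lay under all 4 unstimulated ones, whereas 1 belinostat library lay above the lowest vehicle and GSK-J4 libraries. The group means were 557.4 ± 67.5 in unstimulated, 487.2 ± 41.5 in vehicle, 393.3 ± 33.8 in belinostat and 474 ± 32.5 in GSK-J4 cells (SD, n = 4). In the belinostat group, which had also received the cytokine pulses, JAG1 was lower than in unstimulated cells by a log2 fold change of -0.50 (SE 0.10, adjusted p = 1.65e-05). Relative to vehicle the log2 fold change was -0.31 (SE 0.10, adjusted p = 0.033). This call was lost with edgeR (adjusted p = 0.0628) and without vehicle replicate 13, 14 or 15 or belinostat replicate 17, 18 or 20, where the adjusted p ran from 0.0648 to 0.167. The values of vehicle against unstimulated (-0.20, adjusted p = 0.524), GSK-J4 against unstimulated (-0.23, adjusted p = 0.166) and belinostat against GSK-J4 (-0.27, adjusted p = 0.0547) missed the threshold. The last was called under 6 of 21 alternative settings, and GSK-J4 against unstimulated only without unstimulated replicate 1 (adjusted p = 0.0392).

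Of the receptors, NOTCH3 (chr19:15159038-15200995), the form known from vascular smooth muscle and pericytes, rose with GSK-J4. It stood at 615.7, 681.7, 704.9 and 722.5 normalized counts in unstimulated cells and at 745.3, 639.1, 599.9 and 567.1 in vehicle cells. With belinostat it stood at 709.3, 599.5, 670 and 621.9, and with GSK-J4 at 983.5, 838.6, 868.6 and 875.2. The 4 GSK-J4 libraries lay above all 12 others, and the other 3 groups overlapped. The log2 fold change of GSK-J4 was 0.48 against vehicle (SE 0.09, 1.40-fold, adjusted p = 2.74e-05) and 0.39 against unstimulated cells (SE 0.09, adjusted p = 0.000649). Belinostat lay below GSK-J4 by a log2 fold change of -0.45 (SE 0.09, adjusted p = 1.20e-05), and these 3 calls held under each of the 21 alternatives. The mean of vehicle, 637.8 ± 77.4, and that of belinostat, 650.2 ± 49.2, were within the spread of the unstimulated libraries around 681.2 ± 46.7 (SD, n = 4).

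NOTCH2 (chr1:119911553-120100779) did not pass the test in any comparison. Its means were 6350 ± 833, 6437 ± 590, 6734 ± 794 and 6059 ± 151 normalized counts in unstimulated, vehicle, belinostat and GSK-J4 cells (SD, n = 4), and the 95% intervals of its log2 fold changes ran from -0.28 to 0.34 over the 6 comparisons. The near-identical partial copy NOTCH2NLA averaged 6.86% of the NOTCH2 level, and NOTCH2NLB and NOTCH2NLC averaged 1.4% and 1.6%. Reads shared between these copies and NOTCH2 make the division between them uncertain. NOTCH1 (chr9:136494433-136546048) held between 0 and 7 rounded counts in any library, so a difference between groups was not detectable at this depth. As a share of the summed level of the 3 receptors per kilobase, NOTCH3 made up 12.4% ± 0.831 in unstimulated, 11.6% ± 1.15 in vehicle, 11.4% ± 2 in belinostat and 16.2% ± 0.661 in GSK-J4 cells (SD, n = 4). This share was 15.6 to 17.1% in the GSK-J4 libraries and at most 14.3% in the rest, and that of NOTCH2 was 82.8 to 84.4% with GSK-J4 and 85.6 to 90.2% in the rest.

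None of the 3 target genes was called in any comparison. HES1 (chr3:194136148-194138732), a repressor and the best known target, averaged 75.43 ± 11.2 normalized counts in unstimulated, 66.32 ± 7.79 in vehicle, 80.28 ± 6.07 in belinostat and 71.29 ± 10.3 in GSK-J4 cells (SD, n = 4). All 4 groups overlapped, and its log2 fold changes lay between -0.18 and 0.28, with 95% intervals from -0.51 to 0.61. GSK-J4 against vehicle gave 0.10 (interval -0.23 to 0.44, adjusted p = 0.931) for HES1, in the comparison in which NOTCH3 rose. HEY1, a related repressor, had 2 to 16 rounded counts in a library, and its intervals reached from -1.50 to 1.77. HEYL (chr1:39623435-39639643) had 0 counts in all 4 belinostat libraries and in 3 of the 4 unstimulated and vehicle libraries each. With GSK-J4 it had 3, 1, 1 and 0 rounded counts, which is within what 3 counts or fewer can show, and no fold is given.

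RGS5 (chr1:163111121-163321791), a GTPase-activating protein for G proteins and a pericyte marker, had the largest log2 fold change among the members with at least 50 normalized counts. Its normalized counts were 263.5, 182.2, 197.1 and 216.7 in unstimulated cells and 402.6, 359.3, 349.3 and 428.8 in vehicle cells. With belinostat they were 502.2, 418.8, 483.3 and 470.3, and with GSK-J4 they were 685.5, 761.8, 688.8 and 651.9. Unstimulated libraries were all lowest, GSK-J4 libraries all highest, and 1 belinostat library lay within the vehicle range. The means rose from 214.9 ± 35.3 in unstimulated to 385 ± 37.2 in vehicle cells (SD, n = 4), which is 0.84 on the log2 scale (SE 0.11, adjusted p = 7.12e-12). GSK-J4, with a mean of 697 ± 46.3, lay higher than vehicle by 0.86 (SE 0.10, adjusted p = 8.91e-14) and higher than unstimulated cells by 1.70 (SE 0.11, 3.24-fold, adjusted p = 2.99e-54). Belinostat, with a mean of 468.7 ± 35.7, was higher than unstimulated cells by 1.13 (SE 0.11, adjusted p = 1.16e-22) and lower than GSK-J4 by a log2 fold change of -0.57 (SE 0.10, adjusted p = 5.83e-07). All of these calls held under each alternative. Belinostat against vehicle gave 0.29 (SE 0.10, adjusted p = 0.0762), which missed the threshold and passed it without unstimulated replicate 1 (0.0251), vehicle replicate 16 (0.041) or belinostat replicate 18 (0.0447). RGS5 overlaps NUF2 and RGS5-AS1 on the opposite strand without sharing an exonic base with either, and NUF2 averaged 4.256 to 5.863 normalized counts and was not called.

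AOC3 (chr17:42851184-42858130) encodes a copper amine oxidase also known as vascular adhesion protein. It was higher with GSK-J4 and lower with belinostat than in unstimulated cells, which had not received the cytokine pulses. It stood at 588.7, 719.8, 632.1 and 746.9 normalized counts in unstimulated cells and at 635.8, 599.8, 592.4 and 481.3 in vehicle cells. With belinostat it stood at 371.4, 481.1, 570.7 and 495.3, and with GSK-J4 at 959.1, 1161, 1158 and 911.9. GSK-J4 libraries lay above all others, belinostat libraries lay under all unstimulated ones, and belinostat and vehicle overlapped. GSK-J4, with a mean of 1048 ± 131, was higher than vehicle at 577.3 ± 66.8 (SD, n = 4) by a log2 fold change of 0.86 (SE 0.13, adjusted p = 1.99e-08). It was higher than unstimulated cells, at 671.9 ± 74, by 0.64 (SE 0.13, adjusted p = 3.33e-05). Belinostat, at 479.6 ± 82.2, was lower than unstimulated cells by a log2 fold change of -0.49 (SE 0.13, adjusted p = 0.0031) and lower than GSK-J4 by -1.13 (SE 0.13, adjusted p = 2.05e-16). Vehicle against unstimulated (-0.22, adjusted p = 0.688) and belinostat against vehicle (-0.27, adjusted p = 0.268) missed the threshold. The neighbouring relative AOC2 averaged 4.58% of the AOC3 level.

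PDGFRB (chr5:150113839-150155872) was the most abundant member and was not called in any comparison. Its means were 15340 ± 1950, 15020 ± 1230, 15240 ± 1840 and 13990 ± 439 normalized counts in unstimulated, vehicle, belinostat and GSK-J4 cells (SD, n = 4), with 95% intervals of the log2 fold changes between -0.32 and 0.31. In 3 of the 4 groups the library with the lowest PDGFRB was also that with the lowest NOTCH2. Against this level RGS5, per kilobase, amounted to 1.44% ± 0.421 of PDGFRB in unstimulated, 2.6% ± 0.46 in vehicle, 3.15% ± 0.628 in belinostat and 5.01% ± 0.244 in GSK-J4 cells. AOC3 amounted to 6.27% ± 0.711, 5.45% ± 0.256, 4.46% ± 0.407 and 10.6% ± 1.08 of PDGFRB in the same order (SD, n = 4). On both ratios the 4 GSK-J4 libraries lay above all others.

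**Figure D3:**
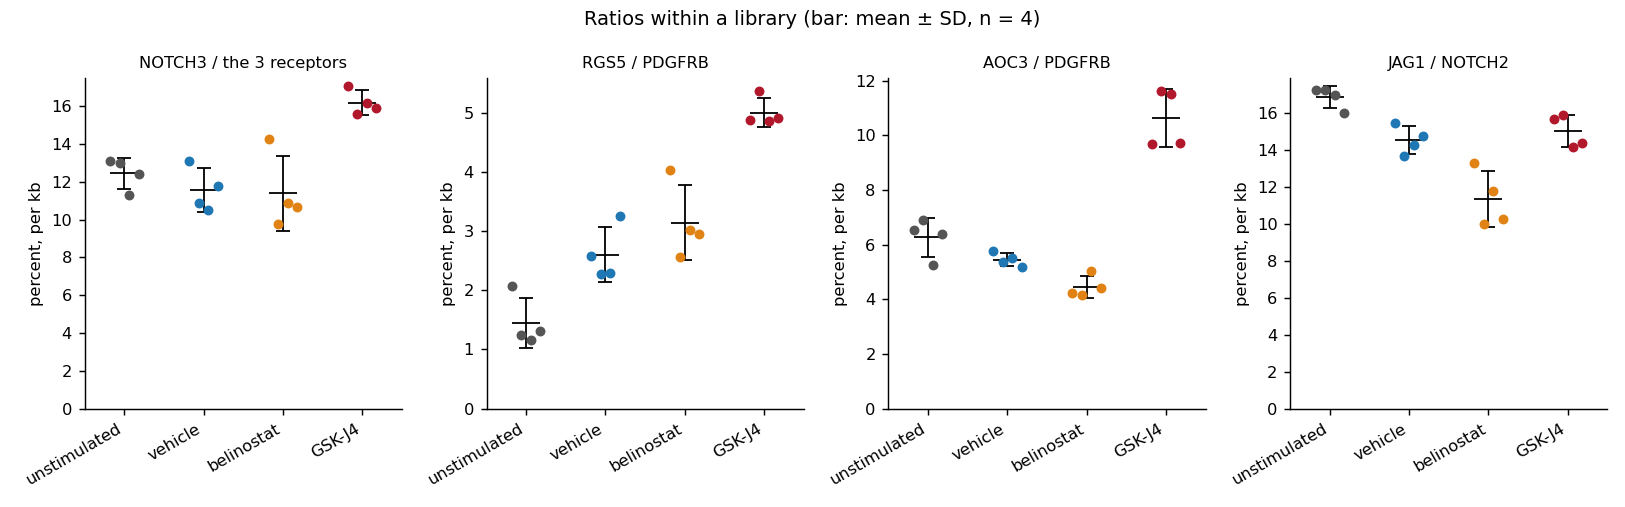
Ratios of members per kilobase within each library (vertical axes, percent, from 0), by group, where points are libraries and bars are the mean ± SD (n = 4). NOTCH3 as a share of the 3 receptors and RGS5 and AOC3 as a percentage of PDGFRB are highest in the 4 GSK-J4 libraries, and JAG1 as a percentage of NOTCH2 is lowest with belinostat, at 11.3% ± 1.52.

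A list of 51 other genes of Notch signalling, from ligands to target genes, was read in the same comparisons. Vehicle against unstimulated called 1 of 43 tested, beside 1.74% of all genes. This was CCND1, which encodes cyclin D1 and was listed among the target genes, with a log2 fold change of 0.35 (SE 0.06, adjusted p = 1.59e-05). Belinostat against vehicle called 4 of 41, beside 6.26% of all genes. The Delta ligand DLL1 fell from 242.3 to 138 normalized counts, a log2 fold change of -0.82 (SE 0.12, adjusted p = 3.62e-10), and the protease FURIN, which processes the receptor precursor, fell by 0.26. MAML2, a Mastermind coactivator, rose by 0.26 and ADAM17, a protease that can cleave the receptor, by 0.24. The call of ADAM17 was lost without belinostat replicate 17 or vehicle replicate 13 or 16, at adjusted p of 0.0546 to 0.0669. GSK-J4 against vehicle called 0 of 38 in DESeq2 and 0 of 42 in edgeR, with 3 at an unadjusted p under 0.05 in DESeq2, beside 1.92% of all genes called. DLL1 was thus the second ligand, beside JAG1, that was called lower with belinostat than with vehicle. The DLL1 call held under each of the 21 alternatives, whereas that of JAG1 was lost under 7 of them. DLL1 was also lower with belinostat than with GSK-J4, by -1.07 (SE 0.11, adjusted p = 2.32e-18).

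Relative to unstimulated cells, belinostat called 6 of 41 pathway genes, of which 4 were higher and 2, DLL1 at -0.75 and FURIN at -0.19, lower, beside 10.3% of all genes. The 4 were CCND1 (0.29), MAML2 (0.27), ADAM17 (0.20) and POGLUT1, a glycosyltransferase of the receptor, at 0.26 (adjusted p = 0.0487). The POGLUT1 call was lost under 15 of 21 alternatives, edgeR among them (adjusted p = 0.0516 to 0.21). GSK-J4 called 7 of 45, beside 5.55% of all genes, of which 6, CCND1 at 0.33 among them, were higher and MIB2, a ubiquitin ligase of ligands, was lower at -0.18. The MIB2 call was lost without GSK-J4 replicate 21, 22 or 24 or unstimulated replicate 3 or 4 (adjusted p = 0.0538 to 0.0946). Of those higher, DLL4 had a log2 fold change of 0.62 (SE 0.18, adjusted p = 0.0169), and the call was lost without GSK-J4 replicate 21 or 22 or unstimulated replicate 3 or 4 (adjusted p = 0.0758 to 0.12). DLL1 had one of 0.32 (adjusted p = 0.0426), which was lost under 11 of 21 alternatives, edgeR, total-count scaling and 9 of the 16 libraries left out in turn, with adjusted p up to 0.179. Belinostat against GSK-J4 called 6 of 42, beside 12.2% of all genes, with MAML2 and ADAM17 higher and DLL1, FURIN, POFUT1 and MAML1 lower. The median log2 fold change of the pathway genes tested lay between -0.02 and 0.02. RBPJ, the DNA-binding partner of all Notch receptors, averaged 3073 to 3337 normalized counts per group and was never called. Of the other target genes, only CCND1 was called, higher in all 3 comparisons with unstimulated cells. HES4 averaged 161.8 normalized counts in unstimulated cells and 126.1 to 132.6 in the other groups, and BHLHE41 averaged 75.86 and 53.37 to 55.49. Both had an unadjusted p under 0.05 in DESeq2 in all 3. MYC, at 292.9 and 250 to 266.9, had one with belinostat. The median log2 fold change of the 5 target genes tested was -0.36 with vehicle, -0.30 with belinostat and -0.29 with GSK-J4, against unstimulated cells. HES5, HEY2 and NRARP were at 0 to 5 rounded counts in every library.

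Of the 13 other pericyte markers, 5 to 7 passed DESeq2's filter in a comparison. CSPG4, the NG2 proteoglycan, averaged 342.4 normalized counts in unstimulated, 495.8 in vehicle, 352.1 in belinostat and 697.3 in GSK-J4 cells. It was higher with GSK-J4 than in unstimulated cells by a log2 fold change of 1.03 (SE 0.17, adjusted p = 1.74e-07), and lower with belinostat than with GSK-J4 by -0.98 (SE 0.17, adjusted p = 2.35e-07). MCAM, the adhesion molecule CD146, was instead highest with belinostat. It rose with belinostat from 3332 in vehicle to 4666 normalized counts, a log2 fold change of 0.49 (SE 0.09, adjusted p = 1.54e-05), and averaged 3255 with GSK-J4. Over the list, vehicle against unstimulated called 0 of 7 in DESeq2 and 0 of 6 in edgeR, beside 1.74% of all genes in DESeq2. In DESeq2, 3 had an unadjusted p under 0.05. GSK-J4 against vehicle called 0 of 5 in DESeq2 and 0 of 6 in edgeR, beside 1.92% of all genes in DESeq2. In DESeq2, 1, CSPG4, had an unadjusted p under 0.05. Belinostat called 1 of 6 against vehicle, beside 6.26% of all genes. It called 4 of 6 against unstimulated cells, beside 10.3% of all genes, where MCAM, NDUFA4L2 and CD248 were higher and TBX18 lower. GSK-J4 called 3 of 7 against unstimulated cells, beside 5.55% of all genes, with CSPG4, NDUFA4L2 and CD248 all higher. NDUFA4L2 was at low counts, averaging 6.429 in unstimulated, 11.3 in vehicle, 19.52 in belinostat and 18.18 in GSK-J4 cells. Belinostat against GSK-J4 called 2 of 6, beside 12.2% of all genes, with MCAM higher and CSPG4 lower. The call of TBX18, at -0.36, was lost with these groups only and without belinostat replicate 17 or 20 or unstimulated replicate 2, 3 or 4 (adjusted p = 0.0515 to 0.108). The median log2 fold change of the markers tested lay between -0.03 and 0.29 over the 6 comparisons.

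Most smooth muscle markers were higher with GSK-J4 than with vehicle, the comparison in which AOC3 and NOTCH3 were also higher. GSK-J4 against vehicle called 7 of 9 tested, all higher, beside 1.92% of all genes, among them MYH11, smooth muscle myosin, at 1.11 (SE 0.22, adjusted p = 0.000166), CNN1 at 0.71 and ACTA2 at 0.55. Belinostat against vehicle called 2 of 9, ACTG2 at -0.63 and ACTA2 at -0.50, beside 6.26% of all genes. Belinostat against GSK-J4 called 9 of 9, all lower, beside 12.2% of all genes. With edgeR these counts were 5 of 9 for GSK-J4 against vehicle, without ACTG2 and MYL9, and 8 of 9 for belinostat against GSK-J4, without LMOD1. Against unstimulated cells, GSK-J4 called 4 of 9, with MYH11, CNN1, MYLK and SMTN higher, beside 5.55% of all genes. Belinostat against unstimulated called 4 of 9, with MYLK higher and ACTA2, ACTG2 and MYL9 lower, beside 10.3% of all genes. Vehicle against unstimulated called 1 of 9, MYLK, higher at 0.26 (adjusted p = 0.0335), beside 1.74% of all genes. This MYLK call was lost under 9 of 21 alternatives, edgeR among them, and that of MYL9 with belinostat under 5 of 21. The median log2 fold change of the 9 was 0.50 for GSK-J4 against vehicle and -0.70 for belinostat against GSK-J4. The summed level of the 10 markers was 100300 to 103700 normalized counts in the GSK-J4 libraries, 68760 to 81950 in vehicle, 53360 to 70840 in belinostat and 63670 to 92590 in unstimulated libraries. DES, which marks mature muscle, was at 0 to 3 rounded counts. Of 8 fibroblast markers, GSK-J4 against vehicle called 2, COL1A2 and COL3A1, both higher at 0.22, beside 1.92% of all genes, and edgeR called 0. Belinostat against vehicle called 3 of the 8, COL1A1, PDGFRA and FBLN1, all lower, beside 6.26% of all genes. Of these, edgeR called PDGFRA and FBLN1. Belinostat against GSK-J4 called 5 of the 8, all lower, in DESeq2 and in edgeR, beside 12.2% of all genes in DESeq2. Vehicle against unstimulated called 1 of the 8, LUM, higher at 0.36, beside 1.74% of all genes, and edgeR called 0. Belinostat against unstimulated called 2 of the 8, LUM higher at 0.47 and FBLN1 lower at -0.42, beside 10.3% of all genes. GSK-J4 against unstimulated called 3 of the 8, COL1A2, COL3A1 and LUM, all higher, beside 5.55% of all genes. In the last 2 of these comparisons edgeR called the same genes. The part of either list in the values of AOC3 and NOTCH3 was not tested.

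**Figure D4:**
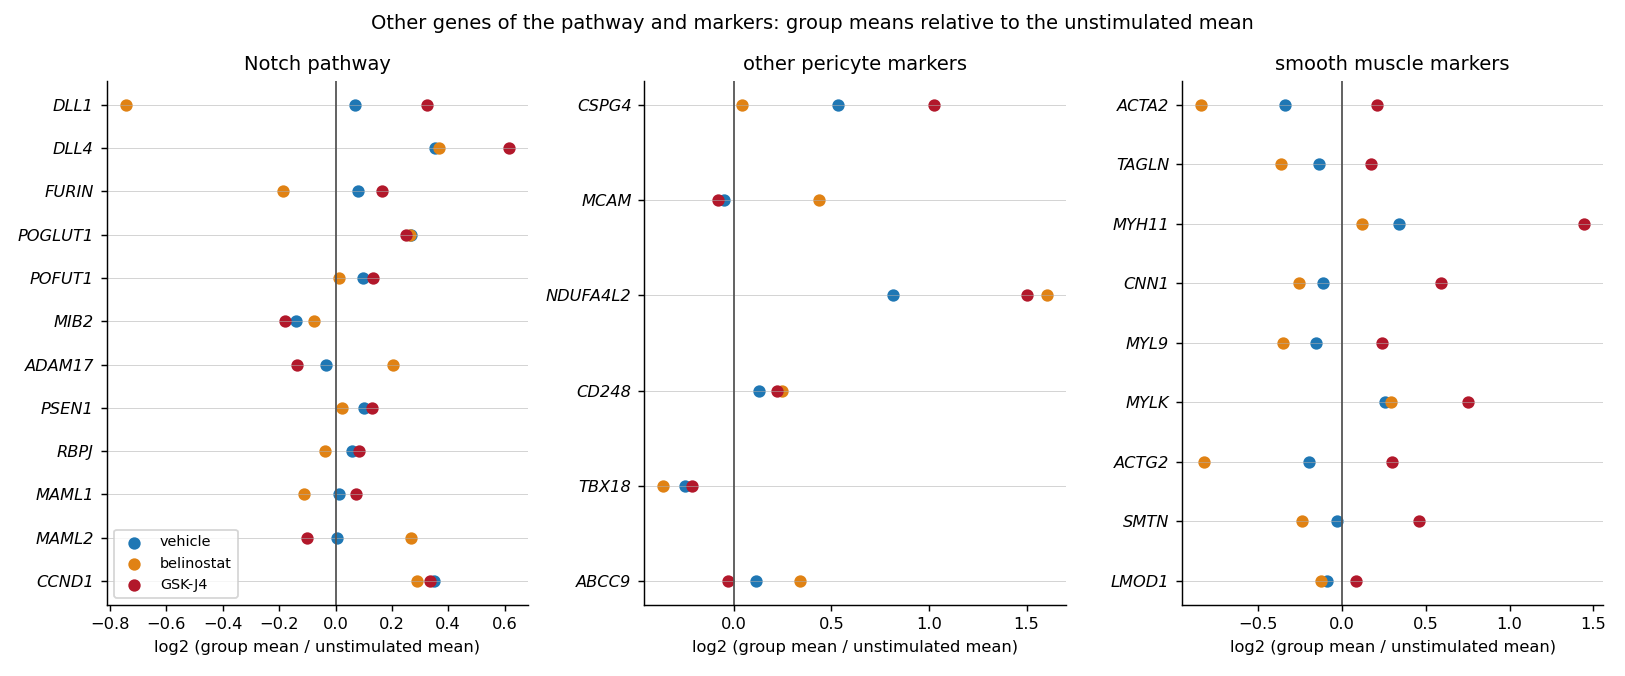
Log2 ratio of each group's mean to the unstimulated mean (horizontal axis, vertical line at 0) for the 11 other pathway genes called in any comparison and RBPJ, for the 6 other pericyte markers with at least 10 normalized counts on average, and for 9 smooth muscle markers, with no error shown. DLL1 stands apart with belinostat, and the smooth muscle markers lie furthest to the right with GSK-J4.

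The genes whose 4 group means, on a log2 scale with a pseudocount of 1 and centred, came nearest to those of a member were sought among 11740 genes with at least 50 normalized counts. For RGS5 these were TOP2A, POSTN and BST2, at Euclidean distances of 0.16, 0.29 and 0.36. For AOC3 they were KCNH2, BAALC and CNN1, at 0.13, 0.15 and 0.20, and for NOTCH3 they were FGF13, PRKAG2 and OPA1, at 0.05, 0.07 and 0.08. With 4 group means, such likeness is a description, and it rests on the same libraries. TOP2A averaged 43.18, 75.85, 83.27 and 130.2 normalized counts in unstimulated, vehicle, belinostat and GSK-J4 cells.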

How the data were processed

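Libraries of Ccd18-Co cells were grouped by their titles, 4 per group, and columns were matched by replicate number. Per the submitters' processing notes, the authors used FastQC 0.11.9, MultiQC 1.14, kallisto 0.48.0 and hg38. They deposited estimated counts by symbol, without scaling. The transcriptome release and the summing to symbols are not given in the sources used here. Counts were rounded and tested in R 4.3.3 with DESeq2 1.42.0 (Wald test, 1 fit of 16 libraries on group, median-of-ratios scaling, default independent filtering, no shrinkage of fold changes). The scripts were tested on simulated data. All members were named, and list genes if called with at least 50 normalized counts on average, up to 4 per list and comparison. NDUFA4L2, RBPJ, HES4, BHLHE41, MYC, CD68, VWF, NOTCH4 and genes at few counts were named beyond this rule, after their values were seen. Members and lists were chosen with earlier results of these data known. Lengths and coordinates are from GENCODE v44 on GRCh38. Alternatives were edgeR 4.0.16 (quasi-likelihood), TMM or total-count scaling, a filter of 10 counts in 4 libraries, fits of the groups compared only, and leaving out each library.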

Additional observations from a re-analysis of the deposited data

Results flagged for a closer look

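Of 40 sets of 4 libraries (10 members in 4 groups), 4 held a library at the edge whose gap to the nearest other took up most of the range (Dixon's test at the 95% level), and chance gives about 1 in 20. PDGFRB in belinostat replicate 17 was lowest of its group, at 12500 normalized counts. HEY1 in GSK-J4 replicate 24 was lowest, at 2.096. HEYL was highest in unstimulated replicate 2, at 1.001, and in vehicle replicate 14, at 0.9582, where the other 3 libraries of the group had 0 counts. With 3 libraries at 0, any count in the remaining library makes the gap equal to the range. The rate of 1 in 20 therefore does not apply to HEYL, and these 2 flags reflect only its low counts.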

How the results depend on the processing

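The calls of RGS5, AOC3 and NOTCH3 with GSK-J4, and the number of members called in 3 of the 6 comparisons, were the same under all 21 alternatives. Belinostat against GSK-J4 called 4 members in place of 3 under 6 alternatives, and GSK-J4 against unstimulated 4 without unstimulated replicate 1, JAG1 being the member gained each time. Belinostat against vehicle called 1 member, 0 with edgeR, and 0 to 2 when 1 library was left out. Values that missed the threshold changed sign with 1 library left out. For NOTCH2 they ran from -0.05 to 0.09 (vehicle against unstimulated) and -0.14 to 0.01 (GSK-J4 against unstimulated). For PDGFRB they ran from -0.11 to 0.03 (vehicle against unstimulated), -0.09 to 0.08 (belinostat against unstimulated) and -0.04 to 0.11 (belinostat against vehicle). NOTCH3 ran from -0.02 to 0.11 (belinostat against vehicle) and JAG1 from -0.10 to 0.00 (GSK-J4 against vehicle). For HEY1 they ran from -0.31 to 0.48 (vehicle against unstimulated), -0.22 to 0.75 and -0.59 to 0.19 (belinostat and GSK-J4 against unstimulated), and -0.24 to 0.60 and -0.46 to 0.04 (belinostat and GSK-J4 against vehicle).

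Over all genes, vehicle against unstimulated called 282, 166 with edgeR, 180 without unstimulated replicate 2 and 453 without belinostat replicate 17. GSK-J4 against vehicle called 253, 91 with edgeR, 542 with these groups only, 432 without belinostat replicate 17 and 132 to 162 when vehicle replicate 14, vehicle replicate 15 or any of GSK-J4 replicates 21 to 23 was left out. Its higher share, 57.3%, became 46.2% with total-count scaling. Belinostat against unstimulated called 1461, and 876 with these groups only. Of the smooth muscle markers, vehicle against unstimulated called 1, and 0 with edgeR. Of the other pathway genes, GSK-J4 against unstimulated called 7, and 3 with edgeR. The causes were not tested. No paired analysis was possible because the groups share no replicate number. Depth limits NOTCH1, HEY1 and HEYL.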
